A study of Mus musculus with 59 samples.

Results

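In chromatin of mouse embryonic stem cells, 302 windows of 5 kb carried METTL3 signal over input in each of 4 precipitates from 2 clones. A window of chromosomes 1 to 19 was taken as a member when each precipitate, in CPM (counts scaled to a common library total), reached at least 3 times the CPM of the input of its own clone, with at least 30 counts in each precipitate and at least 5 in each input. They were 302 of 313441 windows with those counts, of 492558 windows on chromosomes 1 to 19 and of 546202 windows in the whole table. The members were thus chosen by their measured METTL3 and input counts in the 2 clones, so the METTL3 ratios of those 4 precipitates are given as a description and were not tested. Everything tested below comes from other libraries or other readouts.

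The METTL3 cells that gave the rule carried BirA at Rosa26 and a FLAG/Avi tag on METTL3. There were 2 precipitates and 1 input for each of clone 1 and clone 2. A heat set added METTL3 precipitates from 2 samples named H4 and H5 after 1 h at 42 °C and at 37 °C, with 1 input each at 37 °C, and a DGCR8 precipitate at each temperature with 1 input at 37 °C (BirA and FLAG/Avi-tagged DGCR8). A knockout set held DGCR8 precipitates from Mettl3 knockout and wild-type cells and a wild-type input. A last set held DGCR8 precipitates with formaldehyde alone (FA) or with the added long-range crosslinker disuccinimidyl glutarate (DSG) and their input, Dicer and Drosha DSG precipitates from cells with FLAG/Avi-tagged DICER or DROSHA, and an input of parental cells with BirA alone. RNA depleted of ribosomal RNA came from 4 Mettl3 knockout lines (1d1, 3xU, 1d2 and 2c4d) and parental samples 1 and 2, each at 42 °C and 37 °C, 12 libraries in all. The RNA cells, parental and knockout alike, carried BirA and FLAG/Avi-tagged DGCR8. All cells were 129xC57Bl6 hybrids grown on gelatin with LIF medium. The cells of the knockout set carried BirA and FLAG/Avi-tagged DGCR8 as well. Tagged proteins were pulled down with streptavidin, and no such pulldown from untagged cells was used here, so input was the only control for the precipitates.

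Titles and source names disagreed for the first METTL3 precipitate and the input of each clone and for most METTL3 libraries and the DGCR8 input of the heat set, where the genotype label follows the source name. Titles and column names were followed, and the column of the FA precipitate was assigned by elimination. The labels do not say whether H4 and H5 are the same lines as clones 1 and 2, nor whether replicates were separate cultures, so each p-value speaks for the spread among the samples at hand. Library totals (M counts, CPM being counts per M) ran from 13.8 to 29.5 in the METTL3 set, 20.4 to 86.3 in the heat set, 21.6 to 30.3 in the knockout set, 16.1 to 59.8 in the set with Drosha and Dicer, and 7.10 to 13.6 for RNA. The RNA fitted the cell label: 10 embryonic stem cell markers summed to 5249 and 5643 CPM in the parental 37 °C libraries and none was at 0. The 8 fibroblast markers summed to 11.8 and 11.3 CPM, with 4 of them at 0 in at least 1 of these libraries. Primitive endoderm markers (6) summed to 403 and 550 CPM, of which Sparc alone gave 368 and 514 CPM, and no other was above 14.4 CPM. Neuroectoderm markers (5) summed to 53.8 and 60.2 CPM, with 1 of them at 0 in 1 library.

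METTL3 is the catalytic subunit of the nuclear complex that writes N6-methyladenosine (m6A) on RNA while it is transcribed, and m6A in mRNA is known to be dense around stop codons and in the last exon. DGCR8 binds the hairpins of primary microRNA transcripts, and its partner Drosha cuts them, while Dicer acts later, mostly in the cytoplasm, on the released precursors. In embryonic stem cells the most abundant microRNAs come from a cluster that ends with Mir293, Mir294 and Mir295. Heat shock rapidly induces chaperone genes such as Hsp90aa1 and represses transcription of many other genes.

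The sequences below are of features inside member windows on which later results turn. The window at chr7:3220001-3225000 (mm10) held Mir293, Mir294 and Mir295, and it gave the highest DGCR8 fold change over input of all windows tested. The mature RNAs are printed 5′ to 3′ from RefSeq (GRCm38.p6, plus strand) with the seed, bases 2 to 8, in capitals. The 3p arms of Mir294 and Mir295 have the same seed, AAGUGCU, while that of Mir293 is GUGCCGC.
mmu-miR-293-5p: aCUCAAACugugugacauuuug
mmu-miR-293-3p: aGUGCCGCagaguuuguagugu
mmu-miR-294-5p: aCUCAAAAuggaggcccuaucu
mmu-miR-294-3p: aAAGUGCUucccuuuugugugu
mmu-miR-295-5p: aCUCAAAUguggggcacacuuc
mmu-miR-295-3p: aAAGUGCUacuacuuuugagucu
Their hairpins, at chr7:3220343-3220422, chr7:3220641-3220724 and chr7:3220773-3220841, are the kind of RNA stem that DGCR8 and Drosha act on. The mature arms are in capitals.
Mir293: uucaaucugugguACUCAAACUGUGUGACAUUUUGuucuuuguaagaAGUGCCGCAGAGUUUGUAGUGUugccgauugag
Mir294: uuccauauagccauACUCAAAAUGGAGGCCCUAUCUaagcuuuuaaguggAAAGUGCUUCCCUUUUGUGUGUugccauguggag
Mir295: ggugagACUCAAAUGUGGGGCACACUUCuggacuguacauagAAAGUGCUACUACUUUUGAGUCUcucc
Mir5125 and Mir1192 were the other microRNA genes in member windows.

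Of the member windows 18 (5.96%) held an annotated gene start, against 7.04% of windows with the counts of the rule. In those windows 22 promoters of 300 bases (250 before to 50 after the start) were found in RefSeq. The letters TATAAA occurred on either strand in 36.4% of the 22 and in 13.6% of all 32851 promoters, CCAAT on either strand in 68.2% and 37.4%, and TTCNNNGAA, which reads the same on both strands, in 9.09% and 8.30%. None of the 3 motifs contains another. Histone promoters made up 9 of the 22. Those of H2ac11 and H2bc11 overlap, as do those of H2ac12 and H2bc12, so matches in the shared stretches count for both genes. The promoters of Socs3, a feedback inhibitor of LIF signalling, and of the histone genes H2bc12 and H2bc6 are shown because these genes start inside a member window and their RNA differed after heat in a fit described below. Capitals mark those 3 motifs, and all 3 sequences run along the gene's strand (GRCm38.p6).
Socs3, chr11:117969317-117969616, minus strand: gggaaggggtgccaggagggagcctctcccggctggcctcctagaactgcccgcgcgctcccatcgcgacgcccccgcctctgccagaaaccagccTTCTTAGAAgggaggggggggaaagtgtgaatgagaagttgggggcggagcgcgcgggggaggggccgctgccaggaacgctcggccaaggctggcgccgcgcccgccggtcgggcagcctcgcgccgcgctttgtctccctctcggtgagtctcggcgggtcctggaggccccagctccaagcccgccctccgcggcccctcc
H2bc12, chr13:22035571-22035870, plus strand: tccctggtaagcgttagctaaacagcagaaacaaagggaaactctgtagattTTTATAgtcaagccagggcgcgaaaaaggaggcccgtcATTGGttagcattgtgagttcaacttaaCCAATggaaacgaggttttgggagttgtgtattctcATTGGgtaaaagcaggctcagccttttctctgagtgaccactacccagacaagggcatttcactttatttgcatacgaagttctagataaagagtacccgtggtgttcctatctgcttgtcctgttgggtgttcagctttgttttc
H2bc6, chr13:23621045-23621344, minus strand: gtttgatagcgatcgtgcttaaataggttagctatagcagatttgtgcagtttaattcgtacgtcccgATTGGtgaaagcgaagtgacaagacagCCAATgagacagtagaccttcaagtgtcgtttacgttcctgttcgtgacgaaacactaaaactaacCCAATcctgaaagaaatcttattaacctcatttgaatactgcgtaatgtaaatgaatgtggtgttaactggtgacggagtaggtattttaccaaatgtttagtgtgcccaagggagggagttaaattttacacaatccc
The Socs3 promoter held 1 TTCNNNGAA match and neither of the other motifs, H2bc12 held 1 TATAAA and 3 CCAAT matches, and H2bc6 held 3 CCAAT matches. The TATAAA match of H2bc12 lies on the opposite strand, in the stretch shared with H2ac12.

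Within the rule, the median ratio to input of the 302 windows was 4.42 and 5.28 in the clone 1 precipitates and 6.35 and 4.11 in the clone 2 precipitates, against 1.14 to 1.17 over all windows with the counts of the rule. The highest ratios were 21.6 and 20.8 in clone 1 and 31.3 and 16.4 in clone 2. Just inside the threshold lay windows over Rxylt1 and over 2810002D19Rik and Api5, each with a lowest ratio of 3.00021, and a window without a gene with 3.00582. Just outside lay a window over Zfp759 with 2.99915 and windows without a gene with 2.99676 and 2.99465, so the edge of the set separates windows with nearly equal signal. In 293 of the 302 windows the input was at most 5 times the median window in both clones, and in 9 it was higher in at least 1 clone. The windows formed 281 separate regions, 260 of them a single window, and 34 windows lay on chromosome 7.

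The region with the highest lowest ratio, chr17:37010001-37015000, overlaps Zfp57, a zinc finger gene whose protein protects imprinted DNA methylation, and Mog, a myelin glycoprotein gene. Its METTL3 CPM was 42.5 and 59.5 in the clone 1 precipitates against 2.86 in input, and 65.1 and 31.9 in the clone 2 precipitates against 2.40 in input. In the heat set at 37 °C it had 52.8 CPM in H4 and 94.3 in H5, against 3.18 and 5.09 in the inputs. Both samples the rule did not use thus lay far above their inputs there (log2 fold change 3.73 ± 1.25 SE, edgeR adjusted p = 0.024). The next regions were Resf1 (chr6:149325001-149330000), a silencer of retroelements, Fzd5 (chr1:64730001-64735000), a Wnt receptor, Zfp936 (chr7:43190001-43195000) and Lncenc1 (chr13:97495001-97500000), a long noncoding RNA of stem cells. Resf1 had 15.8 and 26.7 CPM in H4 and H5 against 0.393 and 0.773 in input, a log2 fold change of 4.77 ± 0.78 (adjusted p = 0.00053). Zfp936 had 14.7 and 39.7 CPM against 0.327 and 0.708 (5.31 ± 0.84, adjusted p = 0.00046). Fzd5 shows how unlike H4 and H5 could be: 35.3 and 145 CPM against 7.09 and 7.21 in input (3.18 ± 1.83, adjusted p = 0.17).

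Further down were Eef1a1 (chr9:78475001-78480000), the translation elongation factor, a window 370 bases after Gm40324 (chr5:125380001-125385000), a window 67 bases after the end of the pluripotency marker gene Zfp42 (chr8:43290001-43295000), and Hspa8 (chr9:40805001-40810000), the constitutive HSP70 chaperone. They were followed by the unnamed gene model Gm20939 (chr17:94875001-94880000) and by Slc35b2 with Hsp90ab1 (chr17:45565001-45570000), the constitutive HSP90. The window after Zfp42 had 45.9 and 122 CPM in H4 and H5 against 1.41 and 2.38 in input (5.05 ± 1.39, adjusted p = 0.0087). Eef1a1 had 51.4 and 46.4 CPM against 1.41 and 2.19 (4.33 ± 0.94, adjusted p = 0.0024). Eef1a1, histone and zinc finger genes and HSP90 have near-identical copies or pseudogenes, and how reads with several matches were placed is not given in the sources used here, so their values are uncertain.

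**Figure D1:**
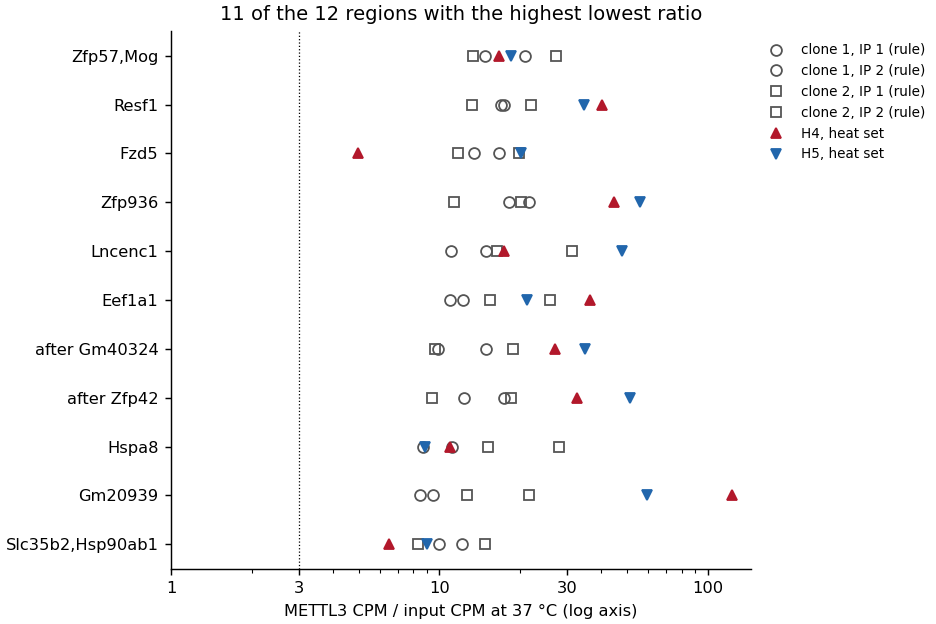
METTL3 CPM over input CPM at 37 °C (log axis) for 11 of the 12 regions with the highest lowest ratio in the rule. Open circles and squares are the 4 precipitates of the rule, the filled triangles are H4 and H5, which the rule did not use, and the dotted line is the ratio of 3; every point lies above it, with H4 at Fzd5 the lowest of the heat-set points.

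The same windows were enriched for METTL3 in the heat set. At 37 °C the median ratio to input was 5.94 in H4 and 7.07 in H5, against 1.19 and 0.933 over all windows with the counts of the rule. The ratio was at least 3 in 237 windows in H4, against 16.8% of all windows with those counts, in 266 in H5, against 4.64%, and in 222 in both, against 3.77%, and it was under 2 in both samples in 9 windows. Both precipitates lay above both inputs in 291 of the 302 windows, against 50.2% of all windows tested. In the edgeR quasi-likelihood fit over 493877 windows, 205 of the 302 (67.9%) were called higher than input at an adjusted p below 0.05, against 20.8% of all windows, and DESeq2 called 259, against 17%. The median log2 fold change was 2.24 in the members and 0.12 in all windows tested. None was called lower by edgeR (0 at unadjusted p below 0.05), against 19% of all windows, nor by DESeq2 (0), against 19.6%. Scaling by library totals in place of TMM moved the median of all windows by 0.44 on the log2 scale and that of the members to 2.70, and the TMM factor of the H4 input, 0.673, stood apart from the 0.926 to 1.18 of the other 5 libraries.

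The highest fold changes were at Zfp978 with Zfp988, Brca2, Gm20939, the long noncoding RNA Tug1 and Zfp936. Their inputs in the heat set were low, from 0.0644 to 0.708 CPM, so the size of these fold changes rests on few input counts. At Brca2 the DGCR8 and parental inputs had 0.271 to 1.06 CPM, above both METTL3 inputs of the heat set. Brca2, which encodes a homologous recombination factor, had 10.7 and 12.7 CPM in H4 and H5 against 0.0982 and 0.225 in input (log2 fold change 5.74 ± 0.54, adjusted p = 1.6e-05). Tug1 had 11.2 and 19.0 CPM against 0.131 and 0.386 (5.46 ± 0.65, adjusted p = 9.2e-05). At the low end were Gm5095, Gm13809, windows 31740 bases from Slc2a13 and 8447 bases from Gmps, and Myt1l, a neuronal transcription factor gene. Gm5095 had 1.84 and 2.89 CPM in H4 and H5 against 1.70 and 3.77 in input (-0.61 ± 0.34, adjusted p = 0.16). These 5 windows had low counts in the rule as well, with 1.52 to 4.26 CPM in its precipitates.

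**Figure D2:**
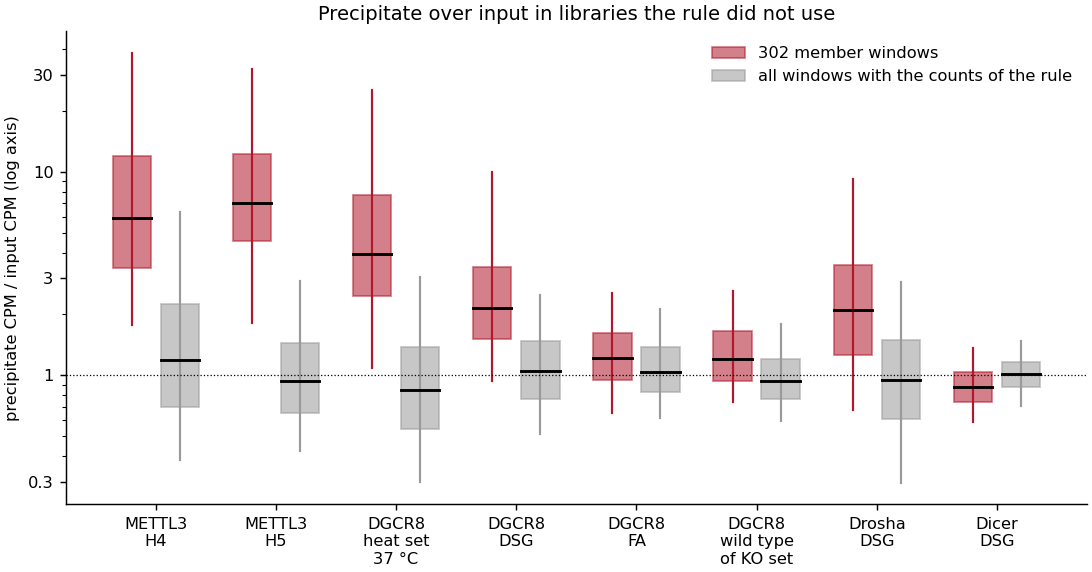
Precipitate CPM over input CPM (log axis) in libraries the rule did not use, for the 302 member windows (red) and for all windows with the counts of the rule (grey). Boxes span the quartiles, black lines are medians and whiskers run from the 5th to the 95th percentile; member medians are 5.94 and 7.07 for METTL3 in H4 and H5, 3.97, 2.15, 1.21 and 1.21 for the DGCR8 precipitates, 2.10 for Drosha and 0.878 for Dicer.

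METTL3 windows in coding genes lay mostly at the 3′ ends of the genes. Of the members, 255 (84.4%) overlapped an annotated gene, against 65.1% of windows with the counts of the rule. Another 47 held no gene, and 29 of these were within 5 kb of one, 22 of them downstream of its end, 2 upstream of its start and 5 beside a gene without a strand. Of 196 members in coding genes with a known strand, 140 (71.4%) held the 3′ end, against 9.54% of 133033 such windows, while 11 (5.61%) held the start, against 9.87%. In coding genes that span 20 kb or more, 61 of 98 window-gene pairs (62.2%) had their centre in the last 20% of the gene or at its end, against 22.4% of all pairs. Their median position was 0.93 of the gene's length, against 0.503. The same counts were made within genes of the top quartile of parental RNA: 78 of 108 members (72.2%) held a 3′ end, against 12.9%, and 63.0% of pairs lay in the last 20%, against 22.6%.

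Around members with a 3′ end, the METTL3 signal was highest in the window itself. The median ratio to input in H4 and H5 at 37 °C was 6.62 and 8.84 in the window itself, 1.56 and 2.06 in the 5 kb window before it along the gene, and 1.89 and 2.23 in the one after it. DGCR8 at 37 °C followed the same profile, with 4.56 in the window and 1.92 and 1.52 beside it, and Drosha had 2.18 in the window and 1.18 and 1.16 beside it. Dicer showed no such peak, with 0.865 in the window and 0.848 and 0.905 beside it. The 22 windows that lay after a gene's end, outside its annotation, had median METTL3 ratios of 5.06 and 6.74, and the other 25 windows without a gene had 4.65 and 4.16. The 115 other windows that overlapped a gene had median ratios of 5.95 and 6.57. Of these, 80 were called higher than input, against 20.8% of all windows. They include windows in noncoding genes and in coding genes without a known strand. Some hold an edge of a gene, such as those over Hsp90ab1 and Lncenc1, so they cannot be read as windows away from gene ends.

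**Figure D3:**
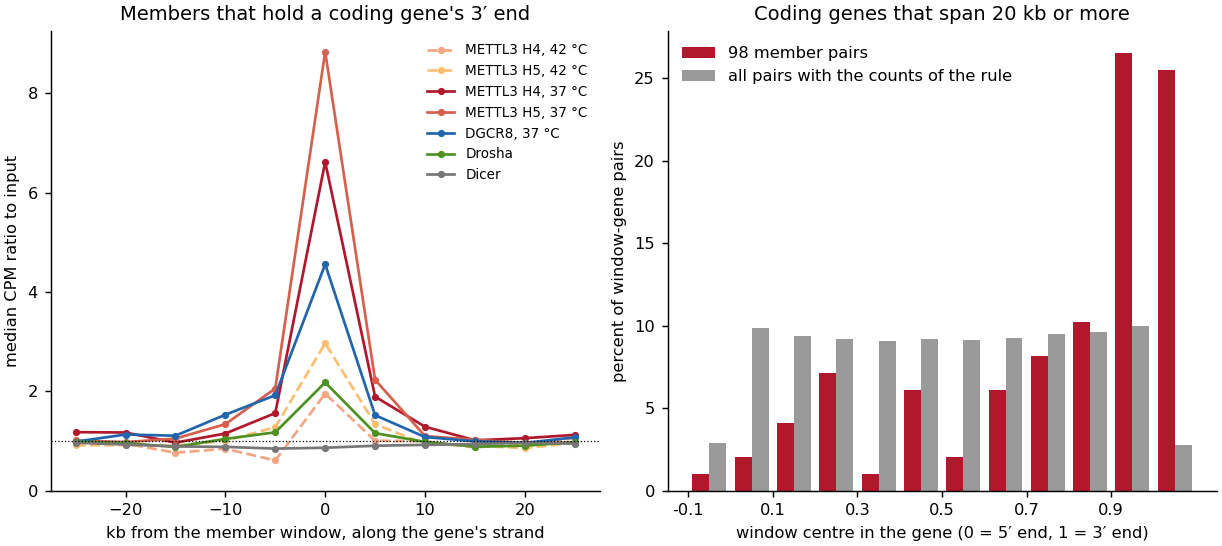
Left, median CPM ratio to input by distance in kb from members that hold a coding gene's 3′ end, along the gene's strand, for METTL3 at 42 °C (dashed) and 37 °C (solid), DGCR8, Drosha and Dicer; METTL3 at 37 °C reaches 6.62 and 8.84 in the window and falls to 1.56 to 2.23 one window away. Right, percent of window-gene pairs by position of the window's centre in coding genes of 20 kb or more; 26.5% of the 98 member pairs lie in the last 10% and 25.5% past the 3′ end, against 10.0% and 2.78% of all pairs.

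The windows touched 328 genes: 263 protein coding, 33 long noncoding, 13 pseudogenes, 12 snoRNA, 5 microRNA, 1 snRNA and 1 scRNA genes. A gene was a member gene when its annotated span overlapped a member window by at least 1 base. Some overlaps are short: Fgf4 ends at base 144865245 of chromosome 7, and its window starts at 144865001. A member gene is thus not always the gene under most of the window. These were 0.832% of 39411 genes with such windows, and 280 of them had an identifier in the RNA table. Genes with a member window were more highly expressed and shorter. Among coding genes whose parental RNA at 37 °C reached 1 CPM, the 236 member genes had a median of 23.0 CPM per kb of exon, against 6.08 for the other 11220. The share of genes with a member window was 0.419%, 1.43%, 1.89% and 4.50% from the lowest to the highest quartile of CPM per kb (12, 41, 54 and 129 of 2864 genes each), and 0.234% of genes under 1 CPM (15 of 6421). Their median span was 13613.5 bases, against 24933, and exons made up 30.5% of the span, against 15.3%. A span of at most 5 kb was found in 23.3% of member genes and 10.2% of the others. The parts that expression, length and exon content play in the position of the windows were not tested.

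The 10 member genes with the most parental RNA were Hsp90ab1 (9168 CPM), Ncl, the nucleolar protein nucleolin (4231 CPM), Malat1, a nuclear long noncoding RNA (3235 CPM), L1td1, a LINE-1-derived RNA-binding protein (1998 CPM), the tubulin gene Tubb5 (1927 CPM), Hnrnpu, a nuclear RNA-binding protein (1876 CPM), the mismatch repair gene Msh6 (1720 CPM), the DNA demethylase gene Tet1 (1607 CPM), the replication timing factor gene Rif1 (1554 CPM) and the translation factor gene Eif4g2 (1490 CPM). Ncl, Hnrnpu, Tet1 and Rif1 each had 2 member windows. Malat1 differed between the parental libraries, with 4923 and 1546 CPM at 37 °C.

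By fixed lists, chosen with earlier results of these data known, the share of genes with a member window was 28 of 345 zinc finger genes named Zfp (8.12%), 12 of 65 histone genes (18.5%, in 7 windows), 6 of 32 pluripotency genes, 4 of 25 heat shock genes, 3 of 11 translation factor genes, 4 of 22 transcription and splicing factor genes, 2 of 80 ribosomal protein genes, 5 of 980 microRNA genes, 3 of 120 snoRNA genes, 1 of 29 nuclear noncoding RNA genes, 2 of 20 immediate early genes and 1 of 607 olfactory or vomeronasal receptor genes. No Hox gene (0 of 39), no host gene of microRNAs on the list (0 of 13) and no small nuclear RNA gene on the list (0 of 21) had one. Over all genes the share was 0.832%. The snoRNA list held only 3 of the 12 snoRNA genes that member windows touched, Snora81, Snord110 and Snord57. Of the m6A writer complex genes only Rbm15 (1 of 8) and of the Microprocessor and silencing genes only Ddx17 (1 of 12) had a member window.

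The zinc finger windows had a median log2 fold change of METTL3 over input of 2.73, and 25 of 29 were called higher. These and the next counts by list stand beside 67.9% of all members and 20.8% of all windows tested. Whether a list differs from the other members was not tested. Zfp62 had 27.0 and 22.5 CPM in H4 and H5 against 0.196 and 0.869 in input (5.17 ± 0.72, adjusted p = 0.00022). Zfp978 with Zfp988 had 4.52 and 11.3 CPM against 0.0982 and 0.0644, few counts in both inputs (6.12 ± 0.69, adjusted p = 5.9e-05). All 3 translation factor windows and all 5 transcription and splicing factor windows were called. They include Eif4a2, an RNA helicase of translation, with 22.4 and 21.3 CPM against 0.491 and 0.901 (4.55 ± 0.62, adjusted p = 2e-04), and Pcf11, a 3′-end processing factor, with 14.1 and 11.1 CPM against 0.360 and 0.628 (4.24 ± 0.49, adjusted p = 6.5e-05). Of 7 histone windows 4 were called, with a median of 2.73. Rbm15, an RNA-binding subunit that guides the writer complex, had 5.57 and 30.9 CPM in H4 and H5 against 0.950 and 0.853 in input (3.85 ± 0.85, adjusted p = 0.0026). Of the pluripotency windows only those of Tet1, 1 of its 2, and Utf1 were called, although Sox2 had 68.9 and 159 CPM against 6.99 and 4.94 (3.74 ± 1.76, adjusted p = 0.092).

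DGCR8 was also higher than input over the METTL3 windows, most in the heat set. The median ratio to input was 3.97 for the 37 °C precipitate, 2.15 for DSG, 1.21 for FA and 1.21 for the wild type of the knockout set, against 0.849, 1.05, 1.04 and 0.940 over all windows with the counts of the rule. In 161 of the 302 windows DGCR8 was above its input in all 4 precipitates, against 20.9% of all windows with those counts. In an edgeR fit of the 4 precipitates and 3 inputs with the set as a term, 121 windows (40.1%) were called higher, against 13.7% of all 485166 windows tested, with a median log2 fold change of 0.85 against 0.05. Only Ttn, Cdkal1 and Arhgap35 were called lower (0.993%), against 13.9% of all windows. Of the 302 windows, 112 were called for METTL3 and DGCR8 alike, against 9.97% of all windows tested for both. DESeq2 called 63 higher, against 8.13%. The edgeR count was 75 without the 37 °C precipitate, against 11%, and 64 without its input, against 11.4%. It was 0 without the DSG precipitate or without the input it shares with the FA precipitate, against 0% of all windows, so these libraries decide it. Scaling by library totals moved the median of all windows by 0.17 on the log2 scale and left none called lower, against 6.33%.

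The microRNA window (Nlrp12, D7Ertd143e, Mir293, Mir294 and Mir295) had the highest DGCR8 fold change of all 485166 windows tested. Its ratio to input was 613 in the heat set, 322 with DSG, 18.7 with FA and 63.7 in the wild type of the knockout set (log2 fold change 7.35 ± 1.76, adjusted p = 0.016). METTL3 there had 25.4 and 19.7 CPM in H4 and H5 at 37 °C against 1.44 and 2.58 in input (3.07 ± 0.63, adjusted p = 0.0018), so METTL3 was well within the range of the other members while DGCR8 was not. Next for DGCR8 came Eif4a2, rank 40 of all windows, with ratios of 51.3, 17.2, 1.66 and 5.28 in the same order of precipitates (3.56 ± 0.77, adjusted p = 0.014), and Eef1a1, rank 41, with 38.7, 22.0, 2.77 and 4.70 (3.56 ± 0.72, adjusted p = 0.014). The Eif4a2 window also holds Snora81, a snoRNA gene, and part of Rfc4. Ttn, the gene of titin, was the lowest, with ratios of 0.276, 0.758, 0.799 and 0.781 (-0.93 ± 0.26, adjusted p = 0.023).

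Drosha, with 1 precipitate over the parental input, was at least 2-fold higher in 147 of 276 windows that had 50 counts or more over both libraries (53.3%), against 15.1% of all such windows. The median log2 ratio was 1.08, against -0.02. For Dicer the same was true of 1 of 291 windows (0.344%), against 0.691%, with a median of -0.19 against 0.02. The Dicer precipitate used the same DSG crosslinking and the same input. With 1 library each these ratios have no replicate check, and the cells of the input were not those of the precipitate. Drosha was highest in the microRNA window, 97.3-fold (95% counting interval 77.8 to 123), over Hnrnpu (chr1:178320001-178325000), 17.0-fold (12.9 to 22.9), and in a window 183 bases from Rps12 (chr10:23780001-23785000), 16.5-fold (13.0 to 21.2). It was lowest in a window 31740 bases from Slc2a13, at 0.165-fold (0.0584 to 0.378), followed by Macf1, a cytoskeletal crosslinker gene, at 0.320-fold (0.183 to 0.531) and over Trim13 with Kcnrg and Dleu2 at 0.422-fold (0.242 to 0.701). Intervals cover counting error only. Across windows, DGCR8 over input and Drosha over input had a Pearson r of 0.77 (Spearman rho 0.72, 276 windows), and METTL3 and DGCR8 over input 0.66 (0.73, 302 windows). These describe windows of a few libraries, which share local depth and mappability.

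After 1 h at 42 °C, METTL3 signal was lower over nearly all member windows. The heat set had no input at 42 °C, so precipitates at 42 °C were set against those at 37 °C, for METTL3 and DGCR8 alike. Whether the pulldown worked equally well at both temperatures was not tested. The ratio of 42 °C to 37 °C had a median of 0.350 in H4 and 0.344 in H5, against 1.03 in both over all windows with the counts of the rule. It was below 1 in both samples in 268 windows, against 25.6% of those windows, above 1 in both in 11, against 34.1%, and split in 23. In 198 it was at most 0.5 in both, against 0.585%. Both 42 °C libraries lay below both 37 °C libraries in 227 of 302 windows (75.2%), against 12.9% of all windows tested. The median log2 fold change was -1.61, against 0.01 over all windows, and 282 of 302 were negative. The edgeR fit without pairing called none of them lower (212 at unadjusted p below 0.05), against 0.000202% of all windows, and none higher (0 unadjusted), against 0%. With H4 and H5 as a block, since each was sampled at both temperatures, 77 members (25.5%) were called lower, against 0.156%, and 0 higher, against 0.00263%. DESeq2, without pairing, called 154 lower, against 0.291%, and 1 higher, Hsp90aa1, against 0.00648%. The unpaired count was 64 without the H4 input, against 0.0667% of all windows, 112 without the H5 input, against 0.147%, and 6 without the H4 precipitate at 37 °C, against 0.00364%. These 37 °C libraries are also those of the comparison with input, so both comparisons share them.

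Lncenc1 had the lowest log2 fold change of all windows tested: 5.07 and 5.76 CPM in H4 and H5 at 42 °C against 38.8 and 163 CPM at 37 °C (-4.32 ± 1.51). Zc3h4, a terminator of noncoding transcription, had 2.82 and 4.04 CPM at 42 °C against 36.1 and 40.7 at 37 °C (-3.58 ± 0.90). The window after Zfp42 had 6.11 and 9.17 CPM against 45.9 and 122 (-3.55 ± 1.29), and Klf2, a pluripotency transcription factor gene, had 6.20 and 17.8 against 78.0 and 161 (-3.40 ± 1.83). For all 4 the temperatures did not overlap, yet none was called with or without the block. The Klf2 window was 1 of the 9 members with input above 5 times the median window in at least 1 clone. Its inputs in the heat set were 15.6 and 11.6 CPM. L1td1 had 3.12 and 3.54 CPM at 42 °C against 25.3 and 40.0 at 37 °C and was called with the block (-3.37 ± 0.81, adjusted p = 0.031). Other windows called with the block were those near Rps12 (-3.12 ± 0.65, adjusted p = 0.0038), Zfp62 (-2.86 ± 0.63, adjusted p = 0.0089), Gm20939 (-2.72 ± 0.46, adjusted p = 6.6e-05) and Rps20 (-2.67 ± 0.60, adjusted p = 0.013).

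Hsp90aa1, the inducible HSP90 gene, had the highest METTL3 fold change after heat of the members. METTL3 there had 111 and 76.3 CPM in H4 and H5 at 42 °C against 32.4 and 21.7 CPM at 37 °C, with 1.36 and 1.71 CPM in the inputs. The log2 fold change was 1.69 ± 1.38, not called by edgeR with or without the block but called by DESeq2 (adjusted p = 0.0006). Hspa8 had 73.7 and 54.2 CPM at 42 °C against 41.7 and 40.4 at 37 °C (0.54 ± 1.26), and Hsp90ab1 had 70.6 and 68.1 against 65.7 and 73.8 (-0.10 ± 1.62). The fourth heat shock gene, Hspa5, a chaperone of the endoplasmic reticulum, had 3.68 and 3.22 CPM at 42 °C against 12.0 and 20.8 at 37 °C and was called lower with the block (-2.28 ± 0.51, adjusted p = 0.011). The windows of this list thus differed in direction. Of the other windows with the largest positive values, Myt1l (0.59 ± 0.45) and windows 151959 bases from Gm33621 (0.57 ± 0.43) and 25139 bases from Ankrd50 (0.52 ± 0.44) had at most 2.14 CPM in any precipitate of the heat set. The pluripotency windows had a median of -2.33 and the zinc finger windows one of -1.77.

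DGCR8 signal was lower after heat over most of the same windows. In its single libraries at 42 °C and 37 °C, 200 of 302 windows (66.2%) were at least 2-fold lower at 42 °C, against 4.15% of all windows with at least 50 counts, and 4 (1.32%) were at least 2-fold higher, against 17.5%. The median log2 ratio was -1.36, against 0.28. The lowest were Eif4a2 at 0.0483 (95% counting interval 0.0420 to 0.0553), the window near Rps12 at 0.050 (0.0439 to 0.0569) and Eef1a1 at 0.0608 (0.0542 to 0.0680). The highest were windows with few counts, 9035 bases from Gm50212 at 3.60 (1.77 to 8.54), over Kcnd2 at 2.72 (1.57 to 5.10) and over Csmd1 at 2.47 (1.55 to 4.13). Hsp90aa1 stood at 1.94 (1.77 to 2.13), Hspa8 at 1.14 (1.06 to 1.23) and the microRNA window at 0.246 (0.242 to 0.250). Over the 302 windows the METTL3 and DGCR8 changes after heat had a Pearson r of 0.68 and a Spearman rho of 0.64, as a description of 6 libraries.

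**Figure D4:**
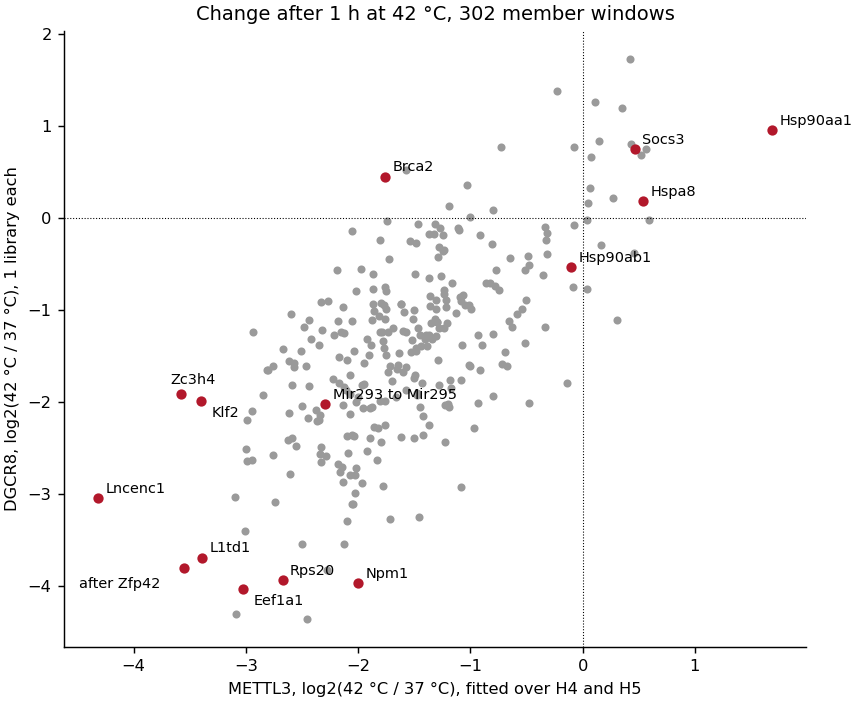
Log2 ratio of 42 °C to 37 °C in the 302 member windows for METTL3 (x axis, fitted over H4 and H5) and DGCR8 (y axis, 1 library each); named windows are in red and dotted lines mark no change. Most windows lie below 0 on both axes (medians -1.61 and -1.36), with Hsp90aa1 at 1.69 on the x axis and Lncenc1 at -4.32.

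The DGCR8 precipitate from Mettl3 knockout cells was set against that from wild-type cells, with 1 library each. Of 295 windows, 19 (6.44%) were at least 2-fold lower in the knockout, against 1.24% of all windows, and 1 was at least 2-fold higher, against 0.555%. The median log2 ratio was -0.24, against 0.00. The microRNA window had the lowest ratio of all windows, 0.0277 (95% counting interval 0.0232 to 0.0329), from 135 counts in the knockout and 6816 in the wild type. Among windows picked after their values were seen, Pml, a nuclear body gene, was next at 0.315 (0.231 to 0.424), then Eef1a1 at 0.329 (0.256 to 0.419), Nfe2l3 at 0.351 and Malat1 at 0.352 (0.286 to 0.431). Across 295 windows the DGCR8 fold change over input and the knockout ratio had a Pearson r of -0.56 and a Spearman rho of -0.37, and the wild-type precipitate enters both. No input of knockout cells was used here.

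RNA of the targeted gene checks the knockout labels. Mettl3 had 29.5, 29.8, 20.5 and 35.5 CPM in the knockout lines at 42 °C and 40.8, 28.6, 21.7 and 29.2 CPM at 37 °C, against 64.8 and 60.4 CPM in parental cells at 42 °C and 71.5 and 69.2 CPM at 37 °C. Every knockout library lay below every parental library, although counts per whole gene do not show which part was deleted. In these bulk samples fewer cells with an RNA and less RNA per cell cannot be told apart. Of the 280 member genes with an identifier, 255 passed the filter on low counts.

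At 37 °C, 4 member genes were lower in Mettl3 knockout than in parental cells in the edgeR fit, against 0.486% of all genes. Map10, a microtubule-associated protein gene, had 3.69, 3.24, 3.90 and 3.84 CPM in the knockout lines against 10.9 and 11.2 CPM in parental cells (log2 fold change -1.59 ± 0.23, adjusted p = 0.017). Jrk had 6.54, 10.9, 5.98 and 7.16 CPM against 22.7 and 19.5 (-1.46 ± 0.27, adjusted p = 0.035). Mars2, a mitochondrial tRNA synthetase gene, had 8.33, 13.3, 11.4 and 9.04 CPM against 23.7 and 27.4 (-1.28 ± 0.25, adjusted p = 0.041). Mars2 ends at base 55240058, just inside its window, which starts at 55240001 and also overlaps Boll. Rfc4, a clamp loader subunit gene, had 22.8, 20.1, 29.2 and 27.3 CPM against 46.9 and 54.8 (-1.03 ± 0.21, adjusted p = 0.045). In all 4 the genotypes did not overlap, and Map10 and Mars2 are single-exon genes of 3548 and 2882 bases. None was called higher (11 at unadjusted p below 0.05), against 0.416% of all genes, and DESeq2 called 5 higher, against 3.13%, and 9 lower, against 1.79%. The median log2 fold change was -0.12 in member genes and 0.01 in all genes tested. The count was 0 without either parental 37 °C library and 1 to 4 without each of the other 10 libraries.

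After heat, the number of member genes called in knockout lines depended on whether the libraries of a line were paired. Without pairing, 2 were called higher, against 0.166% of all genes, and none was called lower (9 at unadjusted p below 0.05), against 0.0192%. DESeq2 called 4 higher, against 0.608%, and 3 lower, against 0.102%. Socs3 had 383, 224, 230 and 184 CPM in knockout lines at 42 °C against 75.7, 68.4, 73.2 and 61.7 CPM at 37 °C (1.87 ± 0.22, adjusted p = 0.0039). Txnip, a stress-responsive inhibitor of thioredoxin, had 328, 286, 217 and 270 CPM against 86.3, 160, 124 and 87.4 (1.27 ± 0.22, adjusted p = 0.041), and its window also overlaps Gm15441, whose reads cannot be told apart from it without the strand of counting. The unpaired count of higher genes was 1 or 2 without each of the 12 libraries. With the cell line as a block, 24 member genes were called higher, against 3.87% of all genes, and 23 lower, against 2.9%. The higher ones included Gm15441, H2bc12, Thoc2l and Tob1, an anti-proliferative gene, and the lower ones included Zfp386, Zc3h4, Lcmt2, Fgf4 and Sox2. Gm15441 was near the floor, with 1.11 to 1.82 CPM in knockout lines at 42 °C against 0.209 to 0.433 CPM at 37 °C. Zc3h4 had 48.5, 44.5, 44.7 and 33.7 CPM at 42 °C against 112, 98.0, 68.7 and 65.3 at 37 °C, without overlap (blocked log2 fold change -0.98, adjusted p = 0.00052).

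In parental cells the fit without pairing called none higher (6 at unadjusted p below 0.05), against 0.0128%, and none lower (8 unadjusted), against 0.0064%. DESeq2 called 1 higher, against 0.166%, and 1 lower, against 0.032%. With the line as a block, 3 were called higher, against 0.441%, and 5 lower, against 0.32%. Socs3 had 392 and 263 CPM at 42 °C against 104 and 104 CPM at 37 °C (blocked log2 fold change 1.63, adjusted p = 0.003), H2bc12 had 167 and 176 against 74.0 and 121 (0.86, adjusted p = 0.049), and H2bc6 had 89.4 and 87.7 against 44.3 and 61.5 (0.76, adjusted p = 0.041). Fgf4, a growth factor gene of stem cells, had 89.4 and 92.4 CPM at 42 °C against 187 and 203 CPM at 37 °C (-1.10, adjusted p = 0.0013). Zfp386 had 17.7 and 15.6 CPM against 44.0 and 28.6 (-1.09, adjusted p = 0.0086), and Lncenc1 had 76.9 and 79.7 against 126 and 112 (-0.60, adjusted p = 0.041). Adnp2 and Asxl1 were the other genes called lower.

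The heat effect did not pass a test of difference between genotypes for any member gene. The test of the knockout heat effect minus the parental one called 0 higher (0 at unadjusted p below 0.05) and 0 lower (2 unadjusted) in edgeR, against 0% of all genes each way, and 0 each way with the block, against 0% and 0.0128%. DESeq2 called 0 each way, against 0% and 0.0512%. The median log2 fold change after heat was -0.01 in knockout and -0.07 in parental cells, against -0.02 and -0.01 over all genes tested. The RNA of Hsp90aa1, where the METTL3 signal was above that at 37 °C in both samples, was 503, 504, 707 and 455 CPM in knockout lines at 42 °C against 356, 358, 569 and 499 at 37 °C, and 504 and 857 CPM in parental cells at 42 °C against 466 and 673 at 37 °C. Neither difference was called (0.28 ± 0.23 and 0.26 ± 0.33, adjusted p of 1 for both). The RNA of Klf2, where the METTL3 signal at 42 °C was below that at 37 °C in both samples, was 142, 43.1, 33.4 and 56.6 CPM at 42 °C against 159, 61.0, 38.4 and 61.6 at 37 °C in knockout lines, and 83.3 and 45.1 CPM at 42 °C against 86.1 and 51.6 at 37 °C in parental cells. Neither difference was called (-0.22 ± 0.49 and -0.10 ± 0.70, adjusted p of 1 for both).

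**Figure D5:**
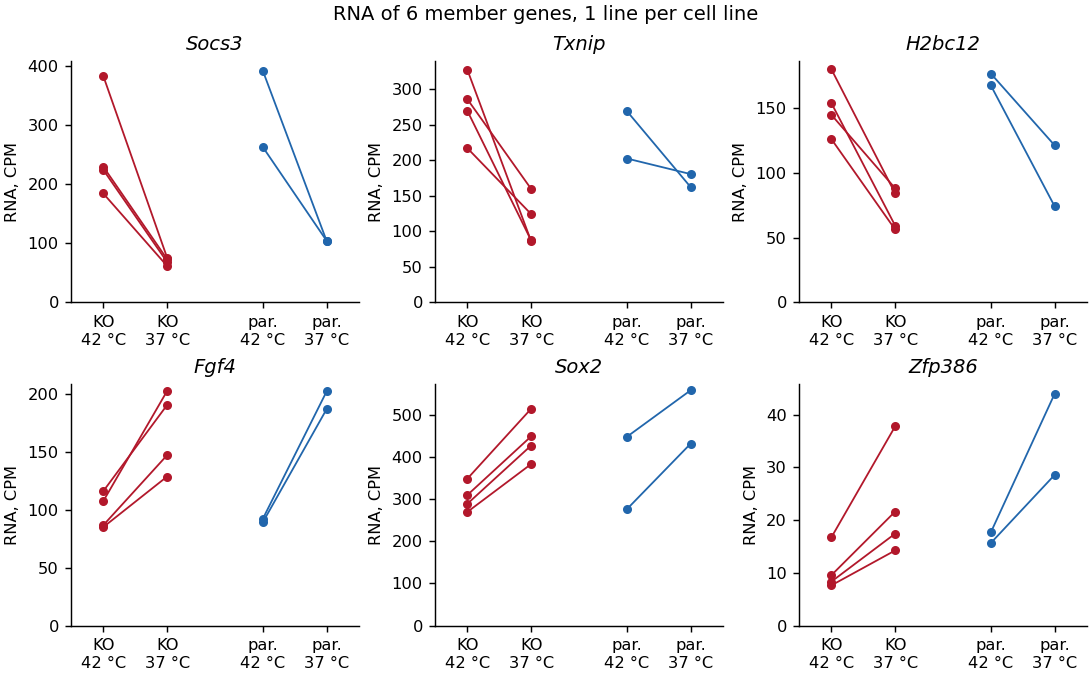
RNA in CPM (y axis, from 0) of 6 member genes in Mettl3 knockout lines (red, n = 4) and parental samples (par., blue, n = 2) at 42 °C and 37 °C, with 1 line joining the libraries of each cell line. Socs3 is higher at 42 °C in every line (184 to 383 against 61.7 to 75.7 CPM in knockout lines), while Fgf4, Sox2 and Zfp386 are lower at 42 °C in every line.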

How the data were processed

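Streptavidin pulldowns of biotin-tagged proteins and their inputs were sequenced, and RNA was sequenced after ribosomal RNA depletion, per the labels' protocols. The authors deposited whole-number counts per 5 kb window and per gene, from a Bowtie alignment to the mm10 build, as the submitters' processing notes list them. The Bowtie version, the counting tool and the handling of duplicates and of reads with several matches are not given in the sources used here. Strand of RNA counting is not stated.

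From these deposited counts, CPM for windows were divided by the column total, and CPM for genes by TMM-scaled totals. Windows of chromosomes 1 to 19 and X with a mean of at least 10 counts, and genes kept by edgeR's filterByExpr, were tested with edgeR 4.0.16 quasi-likelihood fits (R 4.3.3) and Benjamini-Hochberg adjustment over all windows or genes, with a threshold of 0.05. METTL3 over input and the METTL3 heat change share 1 fit of 6 libraries, and DGCR8 over input used 7 libraries with the set as a term. Drosha, Dicer, DGCR8 after heat and DGCR8 in the knockout compare single libraries as CPM ratios with a pseudocount of 1 and at least 50 counts in both together; their 95% intervals cover counting error only. DESeq2 1.42.0, other scalings, filters and pseudocounts and leaving out each library were alternatives. The window fit was tested on simulated data (59889 windows for METTL3 over input): of 100 windows changed each by 2-fold and 4-fold it called 7 and 85, with 1 false call. There, all other windows had equal means in precipitate and input, and no difference between H4 and H5 was added. In the data 20.8% of windows were called higher and 19% lower, so the simulation gives no rate of false calls for them.

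H4 and H5 were sampled at both temperatures, as was each RNA line. Deviations from the group means correlated within H4 and H5 at 0.243 between 37 °C and 42 °C precipitates, and within RNA lines at 0.476 to 0.742, so blocked values are given where they change a count. Knockout against parental RNA allows no block by line, since lines are nested in genotype. The samples list parental sample 1 with lines 1d1 and 3xU, and parental sample 2 with lines 1d2 and 2c4d. A term for this grouping was possible but was not fitted, and the labels do not say what it stands for. At 37 °C Malat1 had 4923, 4642 and 7998 CPM in the first group and 1546, 2155 and 1462 in the second. Lncenc1 did not split in this way.

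Gene positions, names and sequences came from RefSeq (GRCm38.p6). Windows were named by a rule: the 12 regions with the highest lowest ratio, the 5 highest and 5 lowest for METTL3 over input and after heat, the 3 highest and lowest for DGCR8, Drosha and DGCR8 after heat, up to 6 called genes each way per RNA comparison, the 10 most abundant member RNAs, up to 6 of each list by p, and the 3 windows on each side of the threshold. Of the 12 regions, 1 is not reported here. The members, lists and rule were chosen with earlier results of these data known. Python 3.11.15, pandas 2.3.3, scipy 1.17.1 and matplotlib 3.10.9 were used.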

Additional observations from a re-analysis of the deposited data

Results flagged for a closer look

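Among 30 member genes named in the RNA comparisons, 60 groups of 4 knockout libraries were looked at for a library far from the other 3, and chance gives about 1 in 20. For Adnp2 at 37 °C, 1 knockout line had 128.7 CPM and the others 162 to 167, so that the gap was 0.889 of the whole range, past Dixon's critical value for 4 samples. For Tubb5 at 42 °C, 1 knockout line had 2181 CPM and the others 1807 to 1865, a gap of 0.847 of the range. Over all member genes tested, such a library was found for 10 of 252 genes (3.97%) at 37 °C and 7 of 253 (2.77%) at 42 °C.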

How the results depend on the processing

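The count of METTL3 windows called over input was 148 to 246 higher and 0 lower without each library in turn. The share of all windows called can change with the library left out as well. In the fits given above it was 0.00364% to 0.147% for METTL3 lower after heat and 0% to 11.4% for DGCR8 higher. For the other fits without a library, here and above, this share is not given, so their ranges do not describe the members alone. For METTL3 after heat, 77 windows were called lower with the replicate block of H4 and H5 and 154 with DESeq2, which also called 1 higher; without each library 0 to 112 were called lower and 0 higher. For DGCR8 over input, DESeq2 called 63 higher and 1 lower (8.13% and 12.7% of all windows), library totals left 0 lower, and without each library 0 to 149 were higher and 0 to 4 lower. In parental RNA after heat, the block by line called 3 higher and 5 lower, DESeq2 1 and 1, and no filter on low counts 1 higher (0.0732% of all genes); without each library 0 to 1 were higher and 0 lower. In knockout RNA after heat, the block called 24 higher and 23 lower, DESeq2 4 and 3 (0.608% and 0.102% of all genes), no filter 1 lower (0.022%), and genes that start in a member window gave 1 higher; without each library 1 to 2 were higher and 0 lower. Between knockout and parental RNA at 37 °C, DESeq2 called 5 higher and 9 lower (3.13% and 1.79% of all genes), no filter 2 and 7 (0.805% and 0.596%), and genes that start in a member window gave 0 lower; without each library 0 to 1 were higher and 0 to 4 lower. The difference in heat effect between genotypes gave 0 calls each way without each library. The median log2 Drosha ratio was 0.98 with a pseudocount of 5 and 1.04 with at least 20 counts. The median DGCR8 heat ratio was -1.30 with a pseudocount of 5, -1.38 with at least 100 counts and -1.38 in members whose input was at most 5 times the median window. The rule gave 2698 windows at a ratio of 2 and 121 at a ratio of 4, and 319 to 494 without 1 precipitate in turn. The causes were not tested. Single-library ratios have no replicate check, and windows near 30 counts have wide counting error.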
